A study of Mus musculus with 6 samples.

Results

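The small leucine-rich proteoglycans measured here were 10 genes, namely Aspn, Dcn, Bgn, Fmod, Lum, Omd, Ogn, Prelp, Kera and Epyc. They were picked by symbol, as members of the family, out of the 17213 genes of the count table, with earlier results of these data known. Small leucine-rich proteoglycans are secreted proteins built on leucine-rich repeats, many of which carry chondroitin, dermatan or keratan sulphate chains. They bind collagen fibrils and influence their diameter and spacing, and several also bind growth factors such as TGF-beta and BMPs. In the developing tooth they are part of the matrix of the dental follicle, the sac around the unerupted tooth from which periodontal ligament, cementum and alveolar bone arise.

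RNA-seq libraries were made from mouse cells sorted at postnatal day 8 from the follicles of mandibular molars by their tdTomato fluorescence, a reporter that the labels tie to expression of PTHrP. The 3 KO libraries came from cells labelled Pth1r(-/-) and the 3 Het libraries from cells labelled Pth1r(+/-), so by their label the Het cells also carry an altered allele of the receptor gene, and no wild-type group was analysed here. The series text describes both genotypes as conditional and places the tamoxifen pulse at day 3, whereas the sample descriptions place it at day 8, and the Cre driver is not given in the sources used here. No label says whether the libraries came from separate or pooled animals, so the p-values reflect how far these libraries vary, which may be technical. The comparison asks how the RNA of these cells differs when the receptor of PTH and PTHrP is deleted.

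Total counts ranged over 51804736 to 66147200 in the KO libraries and 34019925 to 63787622 in the Het libraries. Pth1r itself was at 680 ± 253 CPM in the KO libraries and 334 ± 43.9 CPM in the Het libraries (SD, n = 3 each), which goes against the labels, so KO and Het below mean the libraries so labelled. These counts cover the gene as a whole and do not tell whether its deleted exons were read. CPM, counts scaled to library size, were adjusted between libraries by TMM. Pthlh, the gene of PTHrP, was at 317 ± 28.5 CPM in KO and 289 ± 47.4 CPM in Het libraries. All 10 genes listed as defining follicle mesenchyme (Postn, Runx2, Pdgfra and others) were counted in both groups, with 6 higher and 4 lower in KO. Their summed level was 23459 to 44062 CPM in KO libraries and 12261 to 30572 CPM in Het libraries. Most of that sum was the collagen gene Col1a1, at 21244 to 41011 CPM in KO and 9738 to 28042 CPM in Het libraries. Markers of dental epithelium (Ambn, Amelx and others) summed to 5215 to 10860 CPM in KO and 5285 to 8522 CPM in Het libraries. Of these 10 markers, 5 were higher and 5 lower in KO. Macrophage markers summed to 28.9 to 164 CPM in KO and 22.5 to 96.6 CPM in Het libraries, with 11 of 12 higher in KO. On the first principal component Het replicate 2 lay far from the other 5 libraries, and values without it are given below where they bear on a result.

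Aspn had the smallest p of the members tested, and its level in KO libraries was 0.434 times that in Het libraries. Lum was the most abundant member and, with Dcn, Omd, Bgn and Ogn, was expressed strongly in all 6 libraries. Those 5 genes averaged lower in KO than in Het libraries, but their groups overlapped. Kera and Epyc, best known from cornea and cartilage, had few or no counts. Of the 10 members, 9 passed the filter on low counts, Kera being left out, and 0 of those 9 passed an adjusted p of 0.05 in edgeR's quasi-likelihood test, against 0 of all 14632 genes tested (0%). Without adjustment, 628 genes (4.29%) had an edgeR p under 0.05, of which 250 (1.71%) were lower in KO, Aspn among them, and 378 (2.58%) were higher, with no member among them. In DESeq2, an alternative count test, 87 of 17084 genes (0.509%) passed, of which 21 (0.123%), Aspn among them, were lower in KO and 66 (0.386%), with no member among them, were higher.

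**Figure D1:**
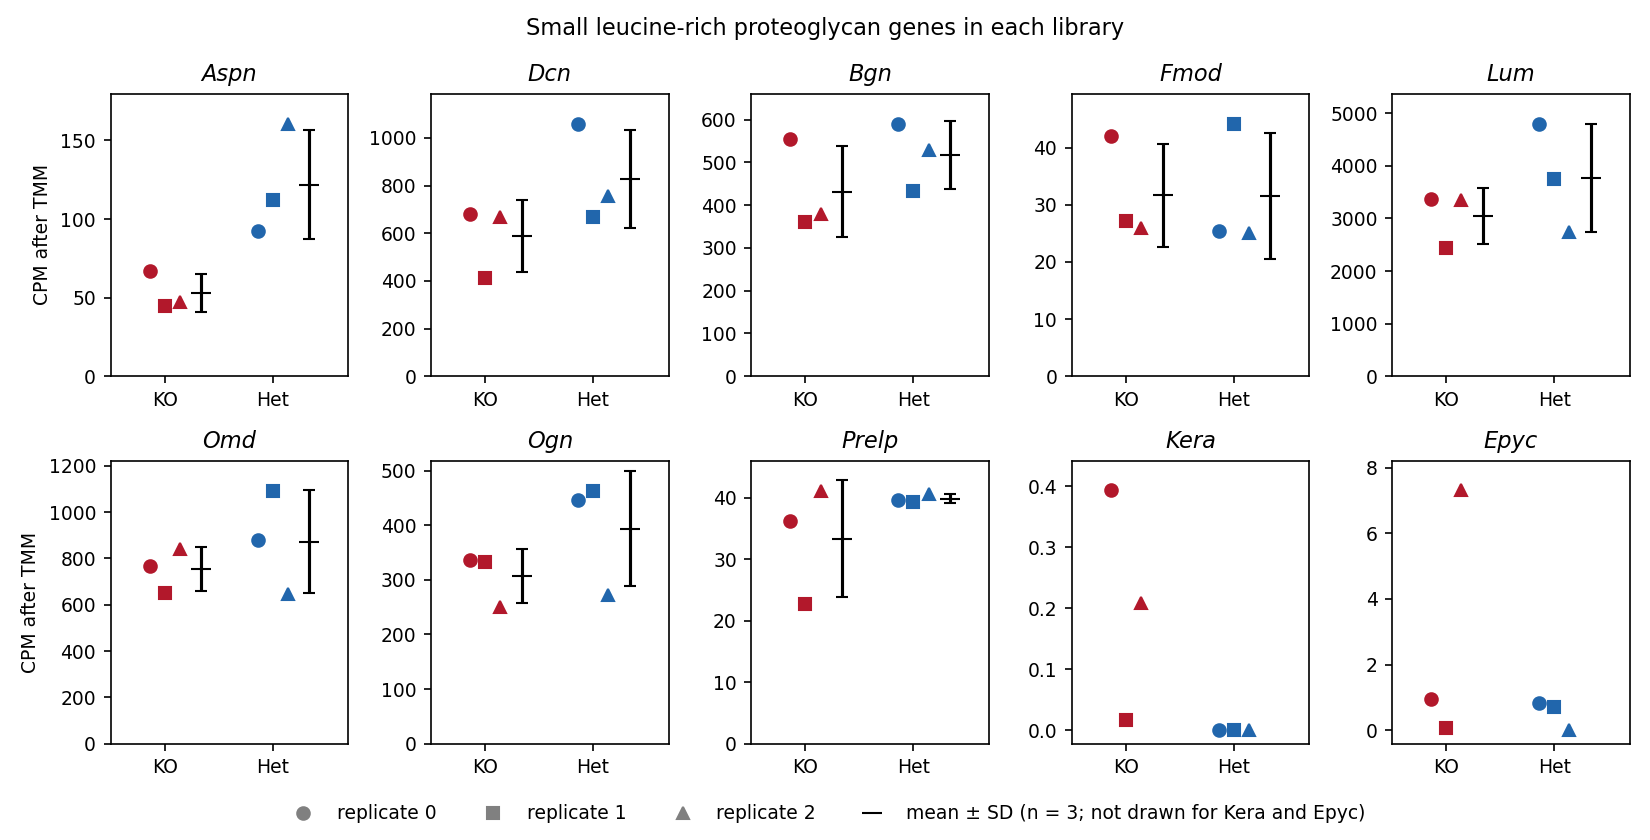
CPM of the 10 members in each library (vertical axes from 0, or just under it for Kera and Epyc, each panel on its own scale), with KO in red and Het in blue, symbols for replicate numbers, and the mean with its SD in black. The KO points of Aspn lie between 44.8 and 66.8 CPM, all below the Het points between 92.7 and 161 CPM, while the KO and Het points of Dcn, Bgn, Fmod, Lum, Omd, Ogn and Prelp overlap.

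The first class of the family holds asporin, decorin and biglycan. Asporin, encoded by Aspn, binds collagen and restrains BMP-driven mineralisation in periodontal ligament cells. Aspn had 66.8, 44.8 and 47.1 CPM in KO replicates 0, 1 and 2, against 92.7, 112 and 161 CPM in Het replicates 0, 1 and 2. Every KO library lay below every Het library, which held for 707 of the 14632 genes tested (4.83%). The means were 52.9 ± 12.1 CPM in KO and 122 ± 34.9 CPM in Het libraries (SD, n = 3 each). On the log2 scale the difference of Aspn between the groups was -1.20, with a standard error (SE) of 0.26 and a 95% interval of -1.80 to -0.61. The unadjusted edgeR p was 0.00136, the 25th smallest of all genes, and the adjusted p was 0.634. Exact permutation of the group labels, two-sided, gave p = 0.1, which is the lowest value possible with 3 libraries on each side. DESeq2 gave a log2 fold change of -1.21 and an adjusted p of 0.00880.

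The size of the Aspn difference varied between library pairs of the same replicate number. KO over Het was 0.721 for number 0, 0.399 for number 1 and 0.294 for number 2. Because the groups did not overlap, any matching of KO with Het libraries gives ratios below 1. These ratios therefore show only how the size varied. Without Het replicate 2, the highest of the 6 libraries, the log2 fold change was -0.96 in both tests, with an adjusted p of 0.605 in edgeR and 0.0128 in DESeq2. The DESeq2 call was lost without KO replicate 1 (adjusted p = 0.202, log2 fold change -1.11), without KO replicate 2 (0.137, log2 fold change -1.14) and with only the libraries numbered 0 and 1 (0.0552, log2 fold change -0.88), and all DESeq2 fits that leave out a library were chosen after seeing the data. Markers of pericytes and smooth muscle ran in the same direction as Aspn. Of that list of 10, 7 of the 9 tested had a lower level in KO, 1 of them (Tagln) past the DESeq2 threshold, and the summed level of the list was 1486 to 1772 CPM in KO libraries and 2124 to 2289 CPM in Het libraries. Endothelial markers summed to 63.7 to 78.2 CPM in KO and 79.9 to 96.3 CPM in Het libraries, with 8 of 10 lower. Osteoblast markers ran the other way, with 9 of 9 tested higher in KO, 2 of them (Dmp1 and Spp1) past the DESeq2 threshold, and sums of 12914 to 21385 CPM in KO and 4998 to 12068 CPM in Het libraries. Mepe of the osteoblast list and Des of the smooth muscle list were at 0 in all Het libraries, and neither passed the filter on low counts. In sorted bulk samples fewer cells of a type and less RNA per cell cannot be told apart, and the part of these cell types in the Aspn difference was not tested.

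Decorin, encoded by Dcn, limits the lateral growth of collagen fibrils and binds TGF-beta. Dcn had 680, 414 and 670 CPM in KO replicates 0 to 2 and 1059, 668 and 758 CPM in Het replicates 0 to 2. KO replicates 0 and 2 lay just above the lowest Het library, so the groups overlapped. The means were 588 ± 151 CPM in KO and 828 ± 205 CPM in Het libraries (SD, n = 3 each), with a log2 fold change of -0.50 (SE 0.26), an interval of -1.09 to 0.10 and an edgeR adjusted p of 0.976. Biglycan, encoded by Bgn on the X chromosome, is an abundant proteoglycan of bone and dentine matrix. Bgn had 555, 361 and 379 CPM in KO replicates 0 to 2, against 590, 433 and 528 CPM in Het replicates 0 to 2. The highest library of each group was number 0 and the lowest was number 1, and the groups overlapped, with a log2 fold change of -0.26 (SE 0.23) and an interval of -0.78 to 0.26. Xist, the transcript of the inactive X, was at 43.8, 0.230 and 46.6 CPM in KO replicates 0 to 2 and at 0.145, 78.4 and 23.7 CPM in Het replicates 0 to 2, and the part of such differences in the Bgn values was not tested.

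Set against biglycan within each library, Aspn was steady in the KO libraries and spread in the Het libraries. Per 100 CPM of Bgn, Aspn had 12, 12.4 and 12.4 CPM in KO replicates 0 to 2, against 15.7, 26.0 and 30.4 CPM in Het replicates 0 to 2. The KO values lay below all Het values, and the same was found per 100 CPM of Omd (5.61 to 8.69 in KO, 10.3 to 24.9 in Het) and of Ogn (13.4 to 19.9 in KO, 20.8 to 58.9 in Het). Per 100 CPM of Dcn the groups overlapped, at 7.04 to 10.8 CPM in KO and 8.75 to 21.2 CPM in Het libraries. Per 100 CPM of Lum they overlapped as well, at 1.41 to 1.99 CPM in KO and 1.93 to 5.84 CPM in Het libraries. Aspn already had the smallest p of the members tested and no overlap of its own. The ratios that separate therefore repeat that result in part. The share of other gene ratios that separate in this way was not counted.

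The second class holds fibromodulin, lumican, osteomodulin, PRELP and keratocan, of which the first 2 are keratan sulphate proteoglycans that act in collagen fibril assembly. Lum, encoding lumican, had 3360, 2432 and 3345 CPM in KO replicates 0 to 2, against 4800, 3750 and 2751 CPM in Het replicates 0 to 2. Het replicate 2 was lower than KO replicates 0 and 2, and the other Het libraries were higher than every KO library. The log2 fold change of Lum was -0.31 (SE 0.26) with an interval of -0.89 to 0.28. Fmod, encoding fibromodulin, had 42.1, 27.2 and 25.9 CPM in KO replicates 0 to 2 and 25.4, 44.2 and 25.0 CPM in Het replicates 0 to 2. A single library in each group stood above the rest, so the means were close, 31.7 ± 9.0 CPM in KO and 31.5 ± 11 CPM in Het libraries (SD, n = 3 each). The log2 fold change of Fmod was 0.01 with an interval of -0.69 to 0.70, which spans changes in both directions.

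Osteomodulin, encoded by Omd, is a keratan sulphate proteoglycan of bone and dentine that binds hydroxyapatite. Omd had 769, 651 and 840 CPM in KO replicates 0 to 2, against 881, 1090 and 645 CPM in Het replicates 0 to 2. Het replicate 2 was the lowest of all 6 libraries and Het replicate 1 the highest. The log2 fold change of Omd was -0.21 (SE 0.23) with an interval of -0.74 to 0.32. Prelp encodes a protein that links collagen to the heparan sulphate of basement membranes. It had 36.2, 22.7 and 41.0 CPM in KO replicates 0 to 2, against 39.5, 39.4 and 40.6 CPM in Het replicates 0 to 2. The Het libraries were nearly level, and KO replicate 1 alone lay far below them. The log2 fold change of Prelp was -0.26 (SE 0.25) with an interval of -0.83 to 0.31. Of the exonic bases of Prelp, 9.68% overlap the antisense gene Gm15851, and the strand setting of the counting is not given in the sources used here, so its counts are uncertain to that extent.

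Keratocan, encoded by Kera, is a keratan sulphate proteoglycan of the cornea. Kera had 24, 1 and 11 counts in KO replicates 0 to 2 and 0 counts in each of the Het libraries. Summed over the group this was 0.206 CPM in KO libraries, 9.20 times the 0.0224 CPM that 3 counts over the Het group would give. This ratio allows for counting error of the Het libraries only, and takes the KO counts as they are. KO replicate 0 held 24 of the 36 counts, and without it the ratio was 4.71, from 12 counts. Kera was not tested in edgeR, and its DESeq2 adjusted p was 0.922.

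The third class holds osteoglycin and epiphycan. Osteoglycin, encoded by Ogn and also called mimecan, is found in bone and other connective tissues. Ogn had 337, 333 and 251 CPM in KO replicates 0 to 2, against 446, 462 and 273 CPM in Het replicates 0 to 2. Within each group the library numbered 2 was the lowest, and the KO libraries numbered 0 and 1 lay above Het replicate 2. The log2 fold change of Ogn was -0.36 (SE 0.25) with an interval of -0.92 to 0.20. Epiphycan, encoded by Epyc, is a proteoglycan of growth cartilage. Epyc had 58, 4 and 385 counts in KO replicates 0 to 2, against 52, 25 and 0 counts in Het replicates 0 to 2. KO replicate 2 held most of these counts, and without it the fitted log2 fold change of Epyc was -0.0094, against 2.43 (SE 1.72) in all libraries. Of the exonic bases of Epyc, 40.6% overlap the non-coding gene Gm10754 on the other strand, so its low counts are uncertain. Cartilage markers (Sox9, Col2a1, Acan and others) summed to 431 to 567 CPM in KO and 420 to 562 CPM in Het libraries. Single markers differed more than the sum. Of the 9 tested, 5 were higher and 4 lower in KO, with log2 fold changes of -2.49 to 2.78. In DESeq2, 1 marker of the list passed as higher in KO and 0 as lower. The part of these markers in the Epyc counts was not tested.

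**Figure D2:**
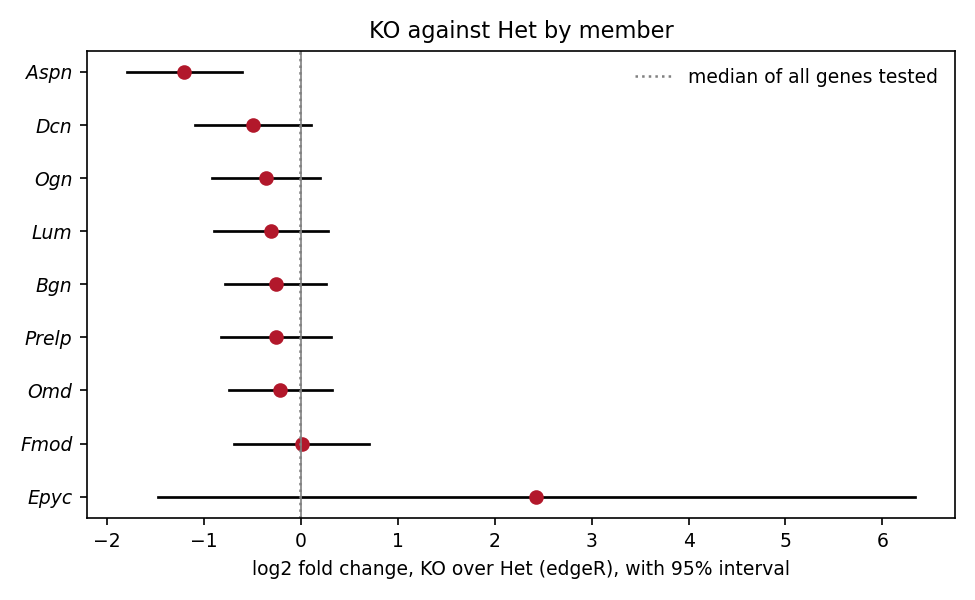
Log2 fold change of KO over Het for the 9 members tested in edgeR (points) with 95% intervals (lines), ordered by size, with a solid line at 0 and a dotted line close to it at the median of all genes tested. The interval of Aspn, -1.80 to -0.61, lies below 0 and those of the other 8 members cross it.

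Across the 9 tested members the fitted log2 fold change was below 0 for 7 and above 0 for Fmod and Epyc, with a median of -0.26. Over all 14632 genes it was below 0 for 7469 (51.0%), with a median of -0.01. KO was below Het at each replicate number for Aspn, where this follows from the lack of overlap. The same held for Dcn, Bgn and Ogn, whose groups overlapped. The share of all genes with such agreement was not counted, and the numbers were not taken as pairing. KO over Het was 0.642, 0.619 and 0.884 for Dcn, 0.939, 0.834 and 0.718 for Bgn, and 0.755, 0.721 and 0.919 for Ogn at numbers 0, 1 and 2. Lum, Omd and Prelp were lower in KO at numbers 0 and 1, and higher at number 2, where the ratio was 1.22 for Lum, 1.3 for Omd and 1.01 for Prelp. With only the libraries numbered 0 and 1, a fit chosen after seeing the data, the edgeR log2 fold changes were farther from 0 for Dcn (-0.66), Lum (-0.56), Omd (-0.47), Ogn (-0.44) and Prelp (-0.42). They were nearer to 0 for Aspn (-0.88) and Bgn (-0.16), and turned to the other sign for Fmod (-0.0118) and Epyc (-0.60). The size of the differences also depended on single libraries. In edgeR, Lum ranged over -0.49 without Het replicate 2 to -0.10 without Het replicate 0. Omd ranged over -0.39 without Het replicate 2 to -0.02 without Het replicate 1, and Ogn over -0.56 to -0.23 for the same libraries. Dcn ranged over -0.63 without Het replicate 1 to -0.29 without Het replicate 0. Bgn ranged over -0.46 without KO replicate 0 to -0.15 without KO replicate 1, and Prelp over -0.44 without KO replicate 2 to -0.04 without KO replicate 1. In all these fits 0 members passed in edgeR. For the 8 well-counted members, the counting error of the lowest library was 0.320 to 3.35% of its value. The spread between libraries of a group was 12.7 to 34.8%, apart from 1.69% for Prelp in the Het libraries. The counting error takes each amplified read as a separate molecule, so it is a lower limit of the sampling error.

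The members together took a varying share of each library. Their summed level was 5847, 4285 and 5606 CPM in KO replicates 0 to 2, against 7935, 6599 and 5181 CPM in Het replicates 0 to 2. Het replicate 2 lay inside the KO range, and the group means were 5246 ± 841 CPM in KO and 6572 ± 1378 CPM in Het libraries (SD, n = 3 each). As a share of all counts this was 0.518 ± 0.064% in KO and 0.662 ± 0.132% in Het libraries. Lum alone held 53.1 to 60.5% of the family's counts.

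Levels of different genes were compared as FPKM, the authors' values scaled by transcript length. Averaged over all 6 libraries, Lum led at 1532 FPKM, followed by Omd at 439, Dcn at 367, Bgn at 195, Ogn at 130, Aspn at 31.9, Fmod at 11.2, Prelp at 9.95, Epyc at 0.698 and Kera at 0.0478 FPKM. Lum was above Omd in 6 of 6 libraries, by 2.69 to 4.53 times. Dcn was above Bgn in 6 of 6 libraries, by 1.55 to 2.46 times, and Ogn above Aspn in 6 of 6, by 1.71 to 6.85 times. Omd and Dcn exchanged places, with Omd higher in 3 of 6 libraries, and so did Fmod and Prelp. In KO replicate 2, Omd was just below Dcn in FPKM (293 against 298) but above it in CPM (840 against 670). Bgn was above Ogn in 5 of 6 libraries, with overlapping ranges. Aspn was above Fmod in every library, but by as little as 1.04 times in KO replicate 2, where the CPM were 47.1 and 25.9. FPKM per CPM was lowest in the libraries numbered 2 for Lum, Omd, Dcn, Ogn and Aspn, as given below. In FPKM this lowers those members there against Bgn, Fmod and Prelp. Together, Lum, Dcn and Omd made up 82.0 to 87.9% of the family's summed FPKM. By group, Lum was at 1333 ± 259 FPKM in KO and 1731 ± 709 FPKM in Het libraries, and Aspn at 20.4 ± 9.73 FPKM in KO and 43.5 ± 10.3 FPKM in Het libraries (SD, n = 3 each).

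**Figure D3:**
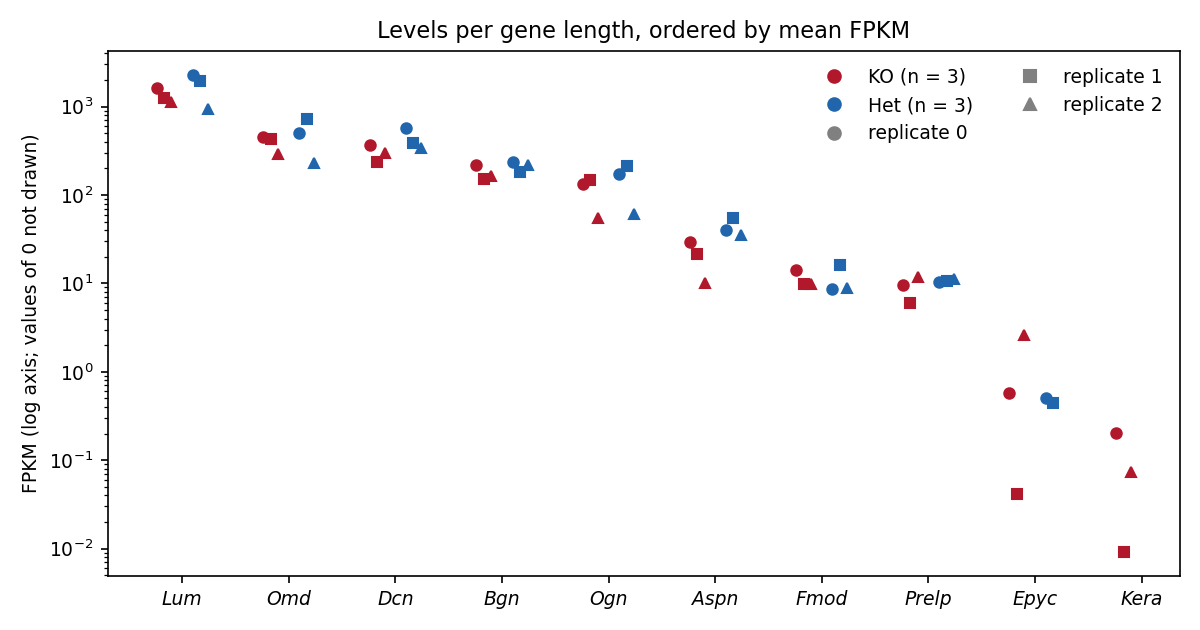
Deposited FPKM of each member in each library (vertical log axis, values of 0 not drawn), ordered by mean FPKM, with KO in red left of Het in blue and symbols for replicate numbers. Lum lies above all other members in every library, and Epyc and Kera lie far below the other 8.

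The FPKM of some members depended on the replicate number as well as on the count. For Aspn, 1 CPM corresponded to 0.441, 0.482 and 0.215 FPKM in KO replicates 0 to 2 and to 0.432, 0.490 and 0.220 FPKM in Het replicates 0 to 2. Both libraries numbered 2 were thus the lowest of their group, and the values of the same number lay close together in the 2 groups. Ogn behaved alike, with 0.395, 0.444 and 0.220 in KO and 0.387, 0.454 and 0.222 in Het replicates 0 to 2. The largest over the smallest of the 6 values was 2.29 for Aspn, 2.07 for Ogn, 1.92 for Omd and 1.57 for Lum, and it was 1.29 for Dcn, 1.11 for Fmod and Prelp and 1.1 for Bgn, against a median of 1.3 over 11009 genes with at least 100 counts in each library. Aspn stood at the 99.0th percentile of those genes, Ogn at the 97.2nd, Omd at the 94.7th, Lum at the 81.2nd and Dcn at the 47.8th, and Prelp, Fmod and Bgn lay between the 10.3rd and the 12.7th. Both libraries numbered 2 lay below the other 4 for 5 of the 8 members assessed (Aspn, Dcn, Lum, Omd and Ogn) and for 5837 of the 11009 genes (53.0%). For 77.7, 78.1 and 87.7% of these genes, the Het library nearest to KO replicates 0, 1 and 2 on this measure was the one with the same number. The labels do not say what libraries of the same number share, and the part of this in the results above was not tested. The CPM comparisons divide by no transcript length.

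**Figure D4:**
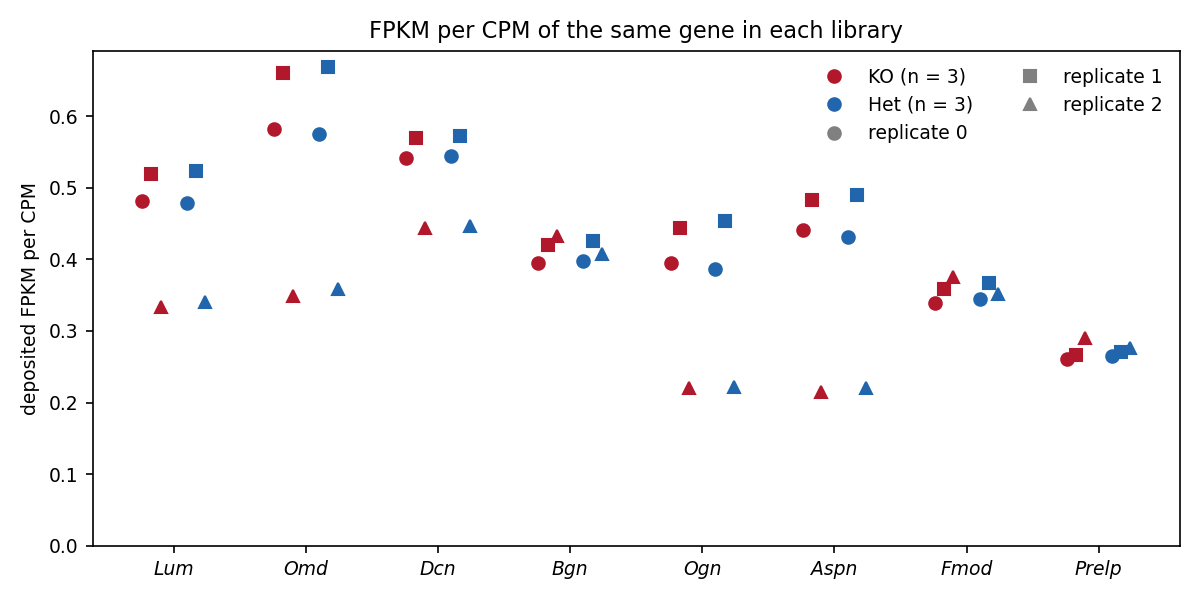
Deposited FPKM per CPM (vertical axis from 0) for the 8 members with enough counts, in each library, with KO in red left of Het in blue and symbols for replicate numbers. The triangles of number 2 lie lowest in both groups for Lum, Omd, Dcn, Ogn and Aspn, near 0.215 to 0.220 for Aspn against 0.432 to 0.490 in the other 4 libraries.

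Most members sit in clusters in the mouse genome (mm10, GENCODE M21 positions). Aspn (chromosome 13, 49544443 to 49567565), Omd (49582462 to 49592822) and Ogn (49608046 to 49624501) lie head to tail on the plus strand within 80.1 kb, next to Ecm2 (49504810 to 49532789), a related leucine-rich repeat gene. All 4 lie inside the gene Cenpp, which runs on the minus strand, and 7 exonic bases of Aspn (0.297%) overlap its exons. On chromosome 10, Dcn (97479609 to 97518143), Lum (97565128 to 97572703), Kera (97606879 to 97613692) and Epyc (97644068 to 97682454) span 203 kb on the plus strand. On chromosome 1, Prelp (133910304 to 133921414, minus strand) and Fmod (134037254 to 134048277, plus strand) lie within 138 kb, and Bgn is alone on the X chromosome (73483602 to 73495933).

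Within the chromosome 13 cluster the log2 fold changes were -1.20 for Aspn, -0.21 for Omd and -0.36 for Ogn. Ecm2, on the other side of Aspn, was at 5.74 ± 2.07 CPM in KO and 6.02 ± 1.53 CPM in Het libraries (SD, n = 3 each), a log2 fold change of -0.07 (SE 0.45.) Cenpp had 0.18, Ippk -0.07, Bicd2 0.22, Nol8 0.13 and Iars 0.47 on the same scale, and 0 of the neighbours passed in edgeR. Fgd3, farther out, had a log2 fold change of -2.41 (SE 1.64), from at most 136 counts in a library. On chromosome 10, Dcn and Lum were both abundant (588 ± 151 and 3046 ± 532 CPM in KO, 828 ± 205 and 3767 ± 1025 CPM in Het libraries), while Kera and Epyc, beside them, had at most 24 and 385 counts in a library.

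**Figure D5:**
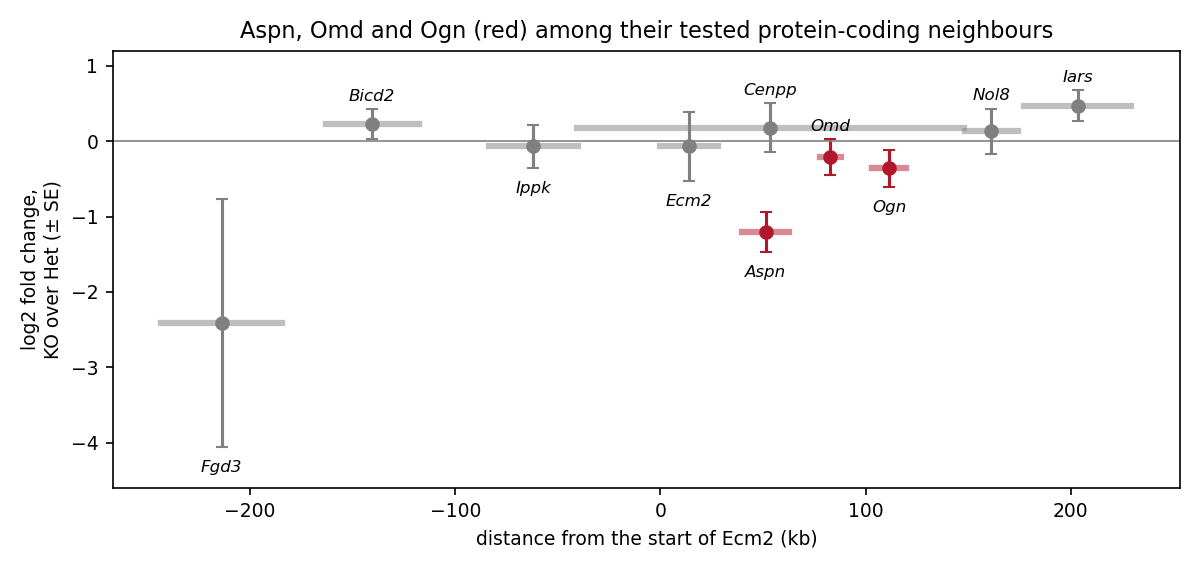
Log2 fold change of KO over Het (points, with standard errors) for the tested protein-coding genes around Aspn, Omd and Ogn, against distance from the start of Ecm2 in kb, with horizontal bars for gene extent and the 3 members in red. Aspn at -1.20 lies below Ecm2 at -0.07, Omd at -0.21 and Ogn at -0.36, and Fgd3 at -2.41 has the widest error.

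The promoters of the 3 members of the chromosome 13 cluster are shown because the fitted log2 fold changes of these neighbours differed in size. The 95% interval of Aspn overlapped those of Omd and Ogn, and the difference between the genes was not tested. Each is the plus strand of GRCm38.p6 as given by RefSeq, 250 bases ending just before the start that RefSeq gives the gene, with capitals marking the TATA box letters TATAAA or the RUNX core letters TGTGGT on either strand. The Aspn window is chr13:49544193-49544442, the Omd window chr13:49582212-49582461 and the Ogn window chr13:49607765-49608014.
Aspn: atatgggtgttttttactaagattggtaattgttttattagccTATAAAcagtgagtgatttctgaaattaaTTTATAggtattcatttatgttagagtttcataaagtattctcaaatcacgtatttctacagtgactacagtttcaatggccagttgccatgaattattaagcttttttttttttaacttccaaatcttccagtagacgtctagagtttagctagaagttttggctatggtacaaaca
Omd: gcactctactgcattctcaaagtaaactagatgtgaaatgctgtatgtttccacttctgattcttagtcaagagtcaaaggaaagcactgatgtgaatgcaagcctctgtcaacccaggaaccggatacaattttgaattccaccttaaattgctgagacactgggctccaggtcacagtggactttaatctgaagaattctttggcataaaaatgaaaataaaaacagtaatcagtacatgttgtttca
Ogn: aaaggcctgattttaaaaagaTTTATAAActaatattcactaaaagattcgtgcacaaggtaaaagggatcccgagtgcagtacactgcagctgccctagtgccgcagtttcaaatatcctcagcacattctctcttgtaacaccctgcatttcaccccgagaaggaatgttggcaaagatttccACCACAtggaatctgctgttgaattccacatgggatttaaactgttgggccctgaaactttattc

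The Aspn window held TATAAA at -207 and, on the other strand, at -178, counted from the RefSeq start, which for Ogn lies upstream of the GENCODE start given above. The Ogn window held it on both strands in overlapping matches at -229 and -227, and the Omd window held none. TATAAA was found in 12.4% of 32851 promoter windows of the same length. The RUNX core was found in the Ogn window, at -65, and in 14% of all windows. The cAMP response element TGACGTCA (1.55% of all windows), its shorter form TGACG (17.8%) and the Smad palindrome GTCTAGAC (0.167%) were found in none of the 9 windows that RefSeq gave for 8 of the members (Aspn, Bgn, Fmod, Omd, Ogn, Prelp, Kera and Epyc). An E-box, CANNTG, was found in 5 of the 9 windows, those of Aspn, Bgn, Fmod, Ogn and Epyc, against 66.2% of all windows, and in Ogn one of its 3 matches overlapped the RUNX core. The GC content was 30.0% in the Aspn window, 38.4% in the Omd window and 42.0% in the Ogn window, against a median of 52.4% over all windows. These are matches of letters, which are not shown to be binding sites.

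Members differed in how their levels ran across the libraries. The closest pair was Lum and Omd, with a root mean square difference of 0.208 between their log2 CPM profiles over the 6 libraries, each centred on its own mean. Dcn and Lum followed at 0.227 and Dcn and Prelp at 0.233. The member nearest to Aspn was Bgn, at 0.539, and the low counts of Epyc lay farthest from the rest, its nearest being Lum at 2.27. Over 11208 genes outside the family whose mean log2 CPM reached 2, the 5 profiles most like that of Aspn were those of Slc1a3 (0.163), Reps2 (0.172), Tagln (0.198), Nipal1 (0.206) and Zfp420 (0.210). Slc1a3, a glutamate transporter gene, was at 9.50 ± 1.53 CPM in KO and 18.8 ± 4.07 CPM in Het libraries. Nipal1, a magnesium transporter gene, was at 10.7 ± 1.91 CPM in KO and 24.6 ± 8.10 CPM in Het libraries. Tagln, a smooth muscle actin-binding protein gene, was at 87.5 ± 6.95 CPM in KO and 168 ± 36.8 CPM in Het libraries (SD, n = 3 each). These likenesses describe 6 libraries that share their genotype contrast, and no test was made of them.

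The wider pathway was followed in 8 gene lists, and 0 genes of any of them passed in edgeR or in DESeq2 with all libraries. Of the other leucine-rich matrix proteins, 7 of 8 were tested and all 7 had a log2 fold change below 0, with a median of -0.35 against -0.01 over all genes. Podn, encoding podocan, was at 15.3 ± 2.92 CPM in KO and 20.1 ± 4.77 CPM in Het libraries. Chadl, a chondroadherin-like gene, was at 12.7 ± 1.7 CPM in KO and 15.7 ± 2.96 CPM in Het libraries, and the podocan relative Podnl1 at 9.23 ± 1.02 CPM in KO and 11.7 ± 3.34 CPM in Het libraries (SD, n = 3 each). The KO and Het libraries overlapped for all 7. Of 11 tested genes of other proteoglycans and link proteins outside the family, 4 were higher and 7 lower, with a median of -0.25. Srgn, encoding serglycin, was at 3.41 ± 1.72 CPM in KO and 6.23 ± 0.971 CPM in Het libraries. Hspg2, encoding perlecan, was at 48.5 ± 28.2 CPM in KO and 34.2 ± 11.9 CPM in Het libraries, and Hapln1, a hyaluronan link protein gene, at 48.1 ± 5.25 CPM in KO and 67.9 ± 41.5 CPM in Het libraries. Hapln1 was at 20.7 CPM in Het replicate 2, and without that library DESeq2 called it lower in KO (log2 fold change -0.93, adjusted p = 0.00117, against -0.50 and 0.965 in all libraries).

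The enzymes that build the sugar chains showed no common direction. Of 7 genes that start the chain on the protein, 3 were higher and 4 lower, with a median of -0.08. Fam20b, a xylose kinase gene, was at 61.1 ± 3.88 CPM in KO and 47.6 ± 3.63 CPM in Het libraries, with no overlap, an unadjusted edgeR p of 0.0791 and an adjusted p of 0.976. B4galt7, a galactosyltransferase gene, was at 48.8 ± 1.74 CPM in KO and 55.5 ± 3.70 CPM in Het libraries, also without overlap, and non-overlap in either direction was seen for 10.7% of all genes. Xylt1, the gene of a xylosyltransferase, was at 4.51 ± 0.496 CPM in KO and 5.81 ± 2.56 CPM in Het libraries. Of 16 genes for chondroitin and dermatan sulphate, 10 were higher and 6 lower, with a median of 0.14. Chst15, a chondroitin sulphotransferase gene, was at 33.3 ± 10.3 CPM in KO and 20.8 ± 6.55 CPM in Het libraries. Chsy1, a chondroitin synthase gene, was at 92.4 ± 30.7 CPM in KO and 59.5 ± 20.9 CPM in Het libraries, and Chpf2, a chondroitin polymerising factor gene, at 148 ± 37.6 CPM in KO and 89.4 ± 55.8 CPM in Het libraries. Of 9 tested genes for keratan sulphate, 6 were higher and 3 lower, with a median of 0.12. St3gal3, a sialyltransferase gene, was at 37.4 ± 4.67 CPM in KO and 28.2 ± 6.43 CPM in Het libraries, and B3gnt7, an N-acetylglucosaminyltransferase gene, at 11.3 ± 3.82 CPM in KO and 7.94 ± 2.10 CPM in Het libraries. Chst2, a sulphotransferase gene, was at 129 ± 6.25 CPM in KO and 89.9 ± 42.0 CPM in Het libraries.

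Among the collagens and other fibril partners, 8 of 13 tested genes were higher and 5 lower, with a median of 0.20. Col14a1, encoding a fibril-associated collagen, was at 9.38 ± 3.25 CPM in KO and 19.5 ± 10.6 CPM in Het libraries, with a log2 fold change of -1.05 (SE 0.47). Tnxb, encoding a tenascin and named after its values were seen, was not tested in edgeR, with 0.0492, 0 and 0 CPM in KO replicates 0 to 2 and 2.36, 2.39 and 0.0281 CPM in Het replicates 0 to 2. Its DESeq2 adjusted p was 0.0770 in all libraries and 0.00108 without Het replicate 2. Eln, encoding elastin, was at 80.6 ± 3.04 CPM in KO and 60.0 ± 15.5 CPM in Het libraries without overlap, and the fibrillin gene Fbn1 at 207 ± 45.2 CPM in KO and 284 ± 76.6 CPM in Het libraries. Of 16 growth factors and receptors that bind members of the family, 3 were higher and 13 lower, with a median of -0.24. Egfr, a receptor that decorin binds, was at 32.6 ± 6.09 CPM in KO and 49.7 ± 9.28 CPM in Het libraries without overlap, with a log2 fold change of -0.61, an unadjusted edgeR p of 0.0296 and an adjusted p of 0.976. Kdr, a VEGF receptor that is also an endothelial marker, was at 3.60 ± 1.06 CPM in KO and 7.21 ± 1.79 CPM in Het libraries, also without overlap. Thus 2 of the 16 had all KO below all Het libraries, against 4.83% of all genes. Tlr2, a receptor for biglycan, was at 8.72 ± 2.92 CPM in KO and 13.1 ± 6.87 CPM in Het libraries. Of 12 tested genes for proteases and their helpers that process the family or the collagens, 6 were higher and 6 lower, with a median of -0.03. Mmp9, a gelatinase gene, was at 39.5 ± 4.42 CPM in KO and 27.4 ± 4.04 CPM in Het libraries without overlap, with an unadjusted edgeR p of 0.0363 and an adjusted p of 0.976. Pcolce2, a procollagen processing enhancer gene, was at 24.6 ± 5.32 CPM in KO and 17.2 ± 3.20 CPM in Het libraries, and the aggrecanase gene Adamts4 at 71.8 ± 18.9 CPM in KO and 54.9 ± 2.77 CPM in Het libraries.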

How the data were processed

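RNA of sorted tdTomato-positive follicle cells was purified (PicoPure), amplified (SMART-Seq v4 Ultra Low Input) and made into Nextera XT libraries, per the labels' protocols. The submitters' processing notes name the mm10 build and DESeq2, HTSeq, Cuffdiff, Cufflinks, Bowtie2 2.2.1, TopHat2 2.0.13 and FastQC, with no role for each. The authors deposited whole-number counts per gene, estimated counts (rounded here) and FPKM values. Amplified reads carry no molecular identifiers, so the ratio given for Kera allows for no more than counting error of the Het libraries. Sample titles gave the groups and the replicate numbers.

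Counts were tested with edgeR 4.0.16 (quasi-likelihood test, TMM, default filter on low counts, R 4.3.3), two-sided, with Benjamini-Hochberg adjustment over 14632 genes and a threshold of 0.05. Standard errors were derived from the F statistic. Alternatives used DESeq2 1.42.0, limma 3.58.1 (voom, and log2(FPKM + 1) or log2(FPKM + 0.1), which understates changes of low genes), other filters and scalings, the replicate number as a block, and each library left out. The scripts were tested on simulated counts. The members and lists were chosen with earlier results of these data known. All members were named, and of each list up to 3 genes with the smallest unadjusted p. Symbols were matched to GENCODE M21 and RefSeq tables.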

Additional observations from a re-analysis of the deposited data

How the results depend on the processing

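Of the 9 members tested, only Fmod and Epyc changed direction under any alternative run, and Aspn ranged over a log2 fold change of -1.41 to -0.88. Fmod, at 0.01, reversed without KO replicate 0 (-0.24 in edgeR, -0.25 in DESeq2), without Het replicate 0 (-0.14 in both), without Het replicate 2 (-0.14 in both) and with only the libraries numbered 0 and 1 (-0.0118 in edgeR, -0.0073 in DESeq2). Epyc reversed without KO replicate 2 (-0.0094 in edgeR, -0.0152 in DESeq2) and with only the libraries numbered 0 and 1 (-0.60 in both), and it gave no value under the stricter CPM filter and the FPKM filter. Leaving out a library gave -0.24 to 0.33 for Fmod and -0.0094 to 3.0 for Epyc in edgeR. The cause was not tested.

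The count of all genes past the threshold, 0 in edgeR, was 87 in DESeq2, and 1 with limma-voom with quality weights, with edgeR's newer quasi-likelihood method and on each of the 3 FPKM scales. Leaving out a library gave 0 to 1 genes in edgeR and 48 to 175 in DESeq2 (48, 49 and 78 without KO replicates 0, 1 and 2, and 167, 137 and 175 without Het replicates 0, 1 and 2). DESeq2 gave 185 with the replicate block and 172 with the libraries numbered 0 and 1. The member count was 1 (Aspn) in DESeq2, 1 with its replicate block, 0 to 1 leaving out a library and 0 with the libraries numbered 0 and 1. The list count was 0 in DESeq2, 2 with its replicate block (Col1a1, adjusted p = 0.0333, and Tnxb, 0.0335), 0 to 2 leaving out a library (Spock3 without Het replicate 1, Tnxb and Hapln1 without Het replicate 2) and 3 with the libraries numbered 0 and 1 (Chst15, Tnxb and Hapln1). These DESeq2 fits, other than the default one, and the edgeR fit of the libraries numbered 0 and 1 were chosen after seeing the data. Deviations of same-numbered libraries correlated at 0.169, 0.075 and 0.069, and each library correlated best with its own number. With 3 libraries a group such values cannot decide whether the numbers pair the libraries. The labels do not say what libraries of the same number share, and the main fit did not take the numbers as pairing. In edgeR the replicate block gave 0 genes, and Aspn at -1.19 with an adjusted p of 0.797. With the block the SE was 0.17 against 0.26 for Dcn, 0.16 against 0.25 for Ogn and 0.16 against 0.23 for Bgn. It was also smaller for Lum and Prelp, but larger for Aspn, Omd, Fmod and Epyc. The edgeR adjusted p with the block was 0.797 for Dcn and Ogn and 0.805 for Bgn. Amplification of few cells, 3 libraries a group and a targeted gene that goes against its labels limit all results.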
